A study of Mus musculus with 6 samples.

Results

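The 9 genes described here were the T cell receptor subunit genes Cd3d, Cd3e and Cd3g, the B cell genes Cd79a, Cd79b, Ms4a1 and Ighm, and Ccr7 and Cd83, which mature dendritic cells express. Their RNA was read in cells isolated from lung as alveolar type II epithelium, the source of surfactant, by all probe sets whose annotated gene symbol was exactly 1 of these 9 names. They were 9 of the 18193 genes that a probe set named alone, with 20 probe sets among the 45101 of the array, 11 of them for Ighm, 2 for Ms4a1 and 1 for each other gene. Probe sets were picked by gene name alone. The 9 genes themselves were proposed for variation between single pools, with earlier results of these data known.

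The isolates came from lungs of 2-month-old mice. The deleted group (Insig1 ∆/∆ /Insig2 -/-) carried SpC-rtTA, Otet-CRE, Insig1 flox/flox and Insig2-/-, so that Cre, driven from the surfactant protein C promoter under doxycycline, removed Insig1. The control group was Insig1 flox/flox and Insig2-/- and lacked either SpC-rtTA or Otet-CRE. Per the labels doxycycline was given from E6.5 to E12.5, and all 6 samples lacked Insig2. No group had the complete Cre system with intact Insig1, so effects of Cre and of the loss of Insig1 cannot be told apart. Each group had 3 arrays, each with an independent pool of RNA, and no source used here says how many mice made up a pool.

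The T cell receptor passes its signal through the CD3 chains, and the B cell receptor passes its own through CD79A and CD79B, which pair with the membrane immunoglobulin. CCR7 guides dendritic cells and lymphocytes toward lymph nodes, and CD83 is a surface protein of mature dendritic cells that other activated cells can also make. In a type II cell isolate such transcripts can come from leukocytes that stay with the epithelial cells. In these bulk samples fewer or more cells of a type and less or more RNA per cell cannot be told apart.

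Markers of the labelled cell type were bright. Of 9 measured type II genes all passed the filter on low signal, and Sftpc, the surfactant protein C gene, had signals of 120117 ± 22767 (SD, n = 3) in control and 104760 ± 21446 in deleted pools. Markers of other cells were measured as well. Of 20 macrophage genes 19 were measured and 8 of 18 tested rose, where 0.625% of all 12952 genes tested did (median log2 fold change 0.94, against -0.0049 over all genes), with a summed signal of 150573 to 201818 in control and 233063 to 249831 in deleted pools. The number that rose was 5 without control pool 1, 1 without deleted pool 1 or 2, and 2 without deleted pool 3, with medians between 0.84 and 1.002 with any 1 pool left out. Of 10 airway genes 2 fell and none rose, where 0.0232% of all genes fell (median -0.49, summed signal 467141 to 607860 in control and 396757 to 493062 in deleted pools). None of them was called without any 1 of the deleted pools, 1 without control pool 1 and 5 without control pool 2. Their part in the results below was not tested. Control pool 3 stood apart from the other arrays on the first principal component, at -61.5 where the others lay between -7.64 and 24.5. Among the controls it was the highest for 8 of the 10 airway genes and 8 of the 18 macrophage genes tested, where 39.6% of all genes had it so.

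Signal is the deposited MAS5 value on a linear scale, and a log2 fold change is the deleted minus the control mean of log2 signal, with its moderated standard error. Probe sets with a mean log2 signal under 8.08 (signal 271) were left untested, which kept 17 of the 20. The 3 left out were all Ighm probe sets. The test was limma's, with Benjamini-Hochberg adjustment over all 27022 probe sets tested and a threshold of 0.05.

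Of the 17 probe sets tested, 1 was called, that of Cd83, and it was higher in deleted pools. Over the array 0.322% of probe sets were called (0.315% higher, 0.0074% lower). At an unadjusted p under 0.05, 4 of the 17 were higher and none lower, against 4.84% and 5.35% of all probe sets. The groups did not overlap for 3 of the 17, those of Cd83, Ccr7 and the brightest Ighm probe set, all with deleted pools above controls, against 7.69% of all probe sets. The genotypes took up a median of 17.003% of the sum of squares of log2 signal over the 17, and 16.9% over all probe sets tested. The range over the 3 control pools had a median of 1.29 on the log2 scale over the 17, against 0.48 over all probe sets. Control pools differed by more than 1 log2 unit for 11 of the 17, and for 12.8% of all probe sets. Because the genes were proposed for variation between single pools, their wider ranges describe the choice and are no independent result.

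**Figure D1:**
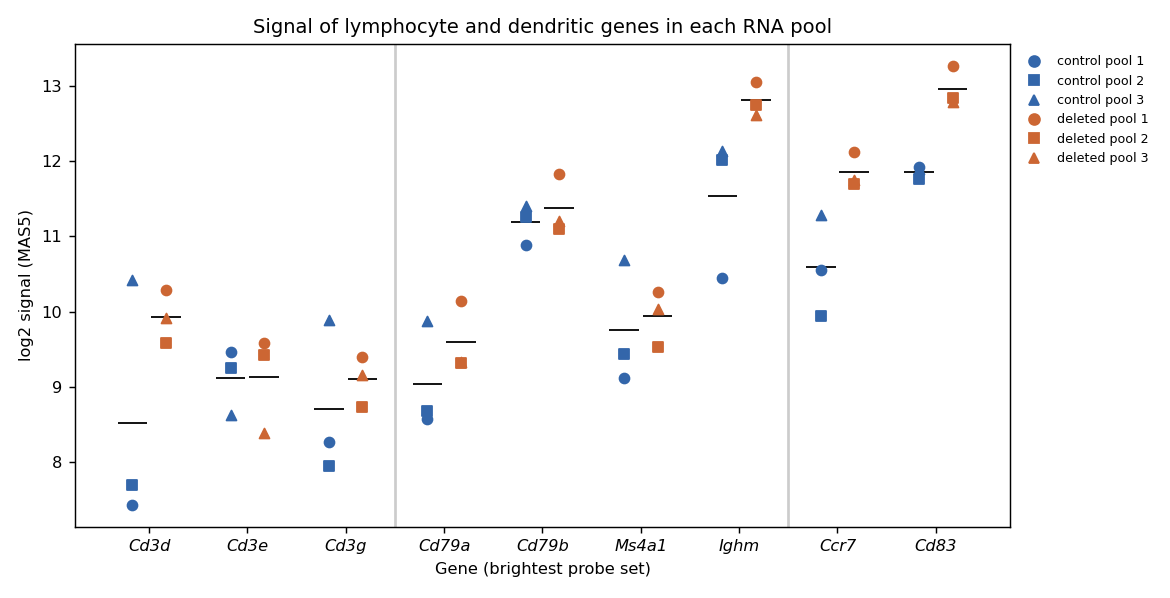
Log2 MAS5 signal (vertical axis) of the brightest probe set of each of the 9 genes, 1 point per RNA pool, blue for control and orange for deleted, with bars at the group means (n = 3 pools each). Control pool 3 lies with or above the deleted pools for Cd3d, Cd3g and Ms4a1, while the groups do not overlap for Ighm, Ccr7 and Cd83.

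Cd3d, Cd3e and Cd3g encode the delta, epsilon and gamma chains that dimerise around the T cell receptor. The genes lie side by side on mouse chromosome 9, and the starts of Cd3g and Cd3d, transcribed away from each other, are 1355 bases apart in the RefSeq annotation of GRCm38.p6. The start of Cd3e lies 27825 bases from that of Cd3d. The 250 bases before each start are shown because Cd3d and Cd3g varied together between the pools and Cd3e did not. RefSeq promoter sequence was matched for 4 of the 9 genes, these 3 and Cd79a. Capitals mark matches to an ETS core (GGAAGT) or an E box (CACCTG) on either strand, and each sequence is written 5′ to 3′ on the gene's own strand.
Cd3d, chr9:44981536-44981785, plus strand: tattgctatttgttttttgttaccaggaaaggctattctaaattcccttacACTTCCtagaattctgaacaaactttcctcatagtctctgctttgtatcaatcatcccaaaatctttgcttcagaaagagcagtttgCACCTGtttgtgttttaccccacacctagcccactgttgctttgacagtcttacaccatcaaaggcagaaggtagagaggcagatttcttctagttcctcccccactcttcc
Cd3g, chr9:44980432-44980681, minus strand: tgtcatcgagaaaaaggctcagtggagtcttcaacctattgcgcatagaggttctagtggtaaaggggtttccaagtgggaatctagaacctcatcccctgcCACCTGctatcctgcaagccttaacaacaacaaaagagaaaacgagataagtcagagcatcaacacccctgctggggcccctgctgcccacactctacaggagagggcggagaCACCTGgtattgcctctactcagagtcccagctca
Cd3e, chr9:45009612-45009861, minus strand: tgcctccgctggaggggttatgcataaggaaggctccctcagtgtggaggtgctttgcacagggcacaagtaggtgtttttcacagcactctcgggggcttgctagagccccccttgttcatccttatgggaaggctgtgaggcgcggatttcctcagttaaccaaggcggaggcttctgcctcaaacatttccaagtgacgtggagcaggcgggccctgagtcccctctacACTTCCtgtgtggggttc
The E box stood 112 bases before the start in Cd3d and at 148 and 35 bases in Cd3g. The ETS core stood at 199 bases in Cd3d and 18 bases in Cd3e. Of all 32851 promoters of this length, 17.2% held the E box and 19.7% the ETS core, so matches in 2 of 3 genes describe these windows and no more.

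Cd3d had signals of 172.5, 206.7 and 1367 in control pools 1 to 3 and of 1251, 766 and 961.5 in deleted pools 1 to 3. Control pool 3 was the highest of all 6, and the other controls lay below every deleted pool. The log2 fold change was 1.41 ± 0.67 (SE, limma adjusted p = 0.51). Without control pool 3 it was 2.37 with an adjusted p of 0.0099, so a single control pool decided this call. The signals of control pools 1 and 2 lay under the filter level, where a fold is least certain.

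Cd3g had the same order of pools as Cd3d at lower contrast, except that control pool 2 rather than control pool 1 was the lowest. Its signals were 308, 246 and 948 in control and 675.5, 427 and 571 in deleted pools, with control pool 3 again the highest of all. The log2 fold change was 0.40 ± 0.46 (adjusted p = 0.83), and it ran from 0.02 without control pool 2 to 0.99 without control pool 3.

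Cd3e did not share this order. Its signals were 709, 609 and 395 in control and 767, 690 and 333.5 in deleted pools, so that the third pool was the lowest in each group. The log2 fold change was 0.02 ± 0.36 (adjusted p = 0.99, 95% interval -0.78 to 0.82), and its sign turned in 3 of the 6 fits with 1 pool left out. The genotypes took up 0.034% of its sum of squares, 34.4% for Cd3d and 9.05% for Cd3g.

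Cd79a and Cd79b encode the immunoglobulin alpha and beta chains, the signalling pair of the B cell receptor. Cd79a had signals of 380, 409 and 935 in control and of 1134.5 (pool 1), 640 and 644 in deleted pools. Control pool 3 and deleted pool 1 were high, and the groups overlapped through control pool 3 alone. The log2 fold change was 0.56 ± 0.37 (adjusted p = 0.67). Without control pool 3 the log2 fold change was 0.98 (adjusted p = 0.26). The promoter of Cd79a, the remaining match in the RefSeq table, is shown beside these values because it is the one B cell promoter that could be read, with the same motifs in capitals.
Cd79a, chr7:24897247-24897496, plus strand: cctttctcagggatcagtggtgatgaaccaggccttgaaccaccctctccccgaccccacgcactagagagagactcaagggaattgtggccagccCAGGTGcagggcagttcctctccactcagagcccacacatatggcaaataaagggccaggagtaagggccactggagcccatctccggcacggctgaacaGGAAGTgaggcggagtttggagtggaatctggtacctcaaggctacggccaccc
It held the ETS core 54 bases before the start and the E box on the opposite strand at 154 bases. Neither the EBF motif CCCNNGGG (11.8% of all promoters), the octamer ATGCAAAT (1.6%) nor TATAAA (12.4%) occurred in the 4 windows.

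Cd79b was brighter and steadier than Cd79a in that its control pools spanned 0.53 log2 units, against 1.30 for Cd79a. Its signals were 1890, 2456 and 2721 in control and 3641, 2194 and 2366 in deleted pools. Deleted pool 1 was the highest and the other deleted pools lay among the controls. The log2 fold change was 0.19 ± 0.22 (adjusted p = 0.82, 95% interval -0.29 to 0.68).

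Ms4a1 encodes CD20, a B cell membrane protein. The brighter of its probe sets gave 557, 693 and 1654 in control and 1223, 737 and 1048.5 in deleted pools, and the dimmer gave 286, 324 and 702 against 617, 344 and 415. In each of them control pool 3 was the highest of all 6 and control pool 1 the lowest. Their log2 fold changes were 0.19 ± 0.38 and 0.14 ± 0.38 (adjusted p = 0.91 and 0.93), and both turned to -0.13 and -0.10 without control pool 1.

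Ighm encodes the immunoglobulin mu heavy chain, which forms IgM. Its 11 probe sets disagreed in direction. The brightest, 1427351_s_at, had signals of 1394, 4133 and 4513 in control and 8540, 6906 and 6285 in deleted pools. The groups did not overlap and control pool 1 was far below the rest, with a log2 fold change of 1.28 ± 0.38 that did not pass (adjusted p = 0.30). Without control pool 1 the log2 fold change was 0.73 and the adjusted p 0.24. The next, 1427329_a_at, gave 1676, 2879 and 4375 against 7397, 3926 and 4022, so control pool 3 lay above 2 deleted pools, with a log2 fold change of 0.82 ± 0.34 (adjusted p = 0.46).

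The third in brightness, 1427870_x_at, pointed the other way. Its signals were 1827, 2160 and 2664 in control and 1417, 1879 and 1799 in deleted pools, with a log2 fold change of -0.38 ± 0.18 (adjusted p = 0.52). The 5 other tested Ighm probe sets had log2 fold changes between -0.33 and 0.10, and none passed (lowest adjusted p among them 0.70). By Affymetrix's naming, the endings _x_at and _s_at mark probes that also match other transcripts, and immunoglobulin genes share long stretches of sequence. No source used here says which part of the mu transcript each probe set reads, so the level of Ighm stays uncertain.

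The 3 dim Ighm probe sets had mean log2 signals of 6.88, 5.99 and 5.002. In the brightest of these, 1451949_at, controls (297, 223 and 186) lay above deleted pools (115, 64.7 and 29.4). The main fit left it untested. In the limma fit with no filter its log2 fold change was -1.94 (adjusted p = 0.44). Plasma cell genes, which secreting B cells express, gave no member past the threshold among 7 tested (median 0.08). Jchain, which links IgM and IgA units, had signals of 12196, 31795 and 27708.5 in control and 23738, 24472.5 and 26722 in deleted pools, a log2 fold change of 0.18 ± 0.30 (adjusted p = 0.87). As with the brightest Ighm probe set, control pool 1 was the lowest. Prdm1, which drives plasma cell differentiation, stood at 0.09 (adjusted p = 0.88).

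**Figure D2:**
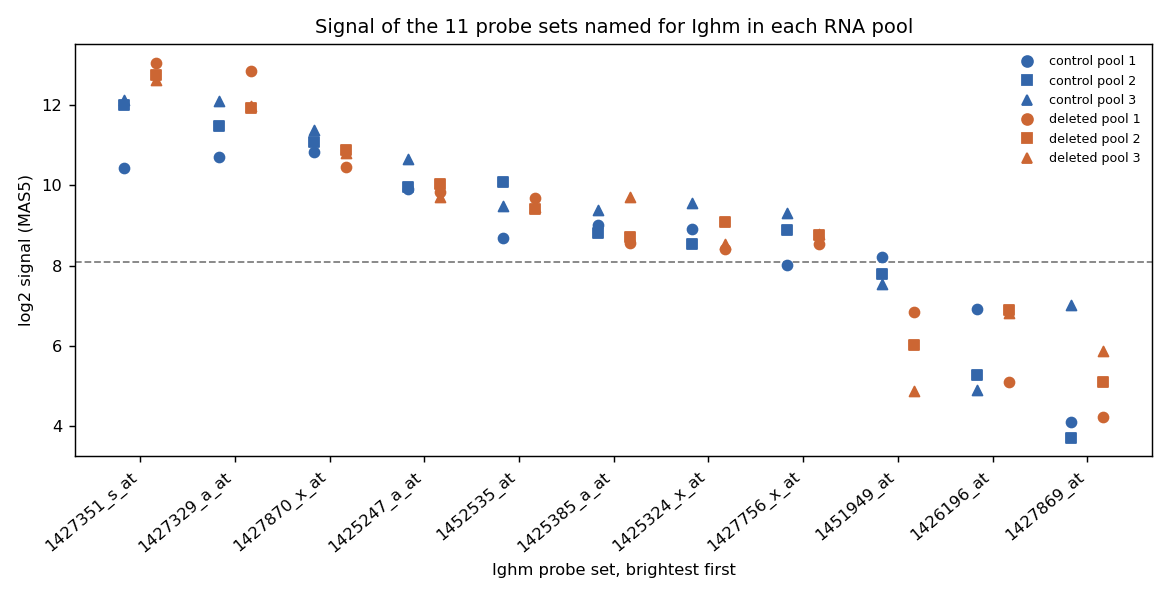
Log2 MAS5 signal (vertical axis) of the 11 probe sets named for Ighm, brightest first, 1 point per pool (blue control, orange deleted); the dashed line is the filter at log2 8.08. Deleted pools lie above controls for 1427351_s_at, mostly below them for 1427870_x_at, and mixed with them for most others.

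Ccr7 encodes a chemokine receptor. Its signals were 1502, 979 and 2496.5 in control and 4476.9, 3316 and 3441 in deleted pools. Every deleted pool lay above every control, and control pool 3 was the highest control. The fold was 2.41 (log2 1.27 ± 0.30), and the adjusted p of 0.19 missed the threshold. It passed without control pool 3 (log2 1.61, adjusted p = 0.014) and with array weights (1.27, adjusted p = 0.045), where control pool 3 had the lowest weight (0.48). The adjusted p was 0.38 without control pool 1 and 0.10 without control pool 2. It was 0.49, 0.50 and 0.45 without deleted pools 1, 2 and 3, and 0.36 without an intensity trend.

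Cd83 rose 2.16-fold in deleted pools (log2 1.11 ± 0.15, adjusted p = 0.017). Its signals were 3868.5, 3468 and 3801 in control and 9860, 7343 and 7052 in deleted pools. The controls lay within 0.16 log2 units of each other, control pool 3 included, and the genotypes took up 92.3% of the sum of squares, against 70.1% for Ccr7. The log2 fold change stayed between 0.956 and 1.198 with any 1 pool left out. The adjusted p did not: it was 0.066 without control pool 1 or deleted pool 1, 0.098 without deleted pool 2 and 0.061 without deleted pool 3, and 0.12 without an intensity trend.

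**Figure D3:**
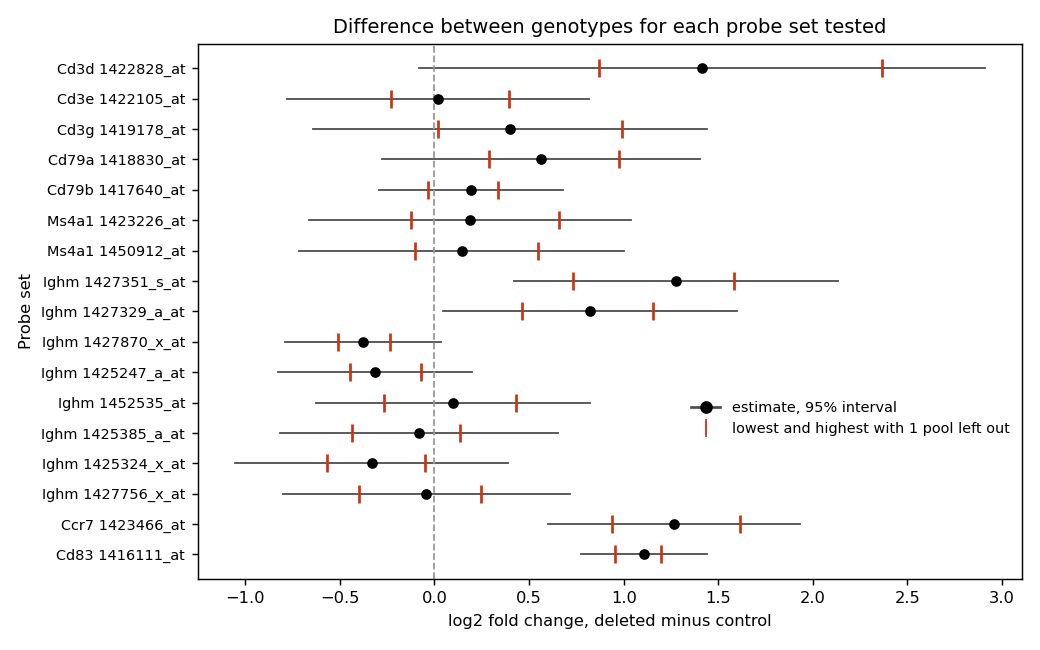
Log2 fold change, deleted minus control (horizontal axis), of the 17 probe sets tested, with the unadjusted 95% interval (line) and the lowest and highest value when 1 pool was left out (red ticks). Cd83 has the narrowest interval of the probe sets above 0.5, and the value of Cd3d moves from 0.87 to 2.37 with the pool left out.

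Among the 15 tested probe sets of the T and B cell genes, control pool 3 was the highest control in 13, against 38% of all probe sets, and deleted pool 1 the highest deleted pool in 10, against 35.5%. Both held for 8 of the 15, against 12.8% of all. In 7 of these 8 the genotypes overlapped, and the exception was the brightest Ighm probe set. Ighm and Ms4a1 each gave more than 1 of the 15 probe sets, so these counts are not of separate genes. The genes were also proposed for variation between single pools, so the counts are no independent result. Averaged over the T cell genes, log2 signal relative to the mean over 6 pools was -0.69, -0.79 and 0.56 in control and 0.68, 0.17 and 0.07 in deleted pools. The B cell genes stood at -0.90, -0.31 and 0.37 against 0.67, 0.02 and 0.14. Ccr7 and Cd83 averaged -0.58, -0.97 and -0.23 against 0.88, 0.45 and 0.45, so here control pool 3 stayed with the controls. The genotypes took up 29.3%, 30.6% and 84.1% of the sum of squares of these 3 averages.

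**Figure D4:**
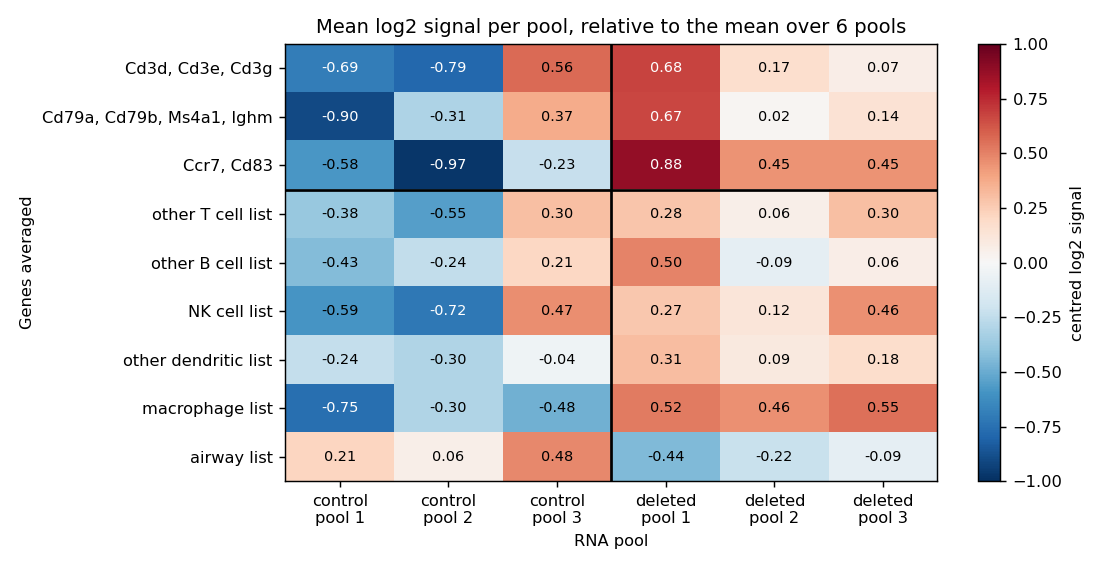
Mean log2 signal in each pool relative to the mean over the 6 pools (colour and printed value), for the 3 groups of genes studied (above the line) and for lists of other genes of the same and of other cell types. Control pool 3 is above 0 for the T, B and NK cell rows and also for the airway row (0.48). It is below 0 for the dendritic rows and the macrophage row (-0.48).

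Other genes of the same cell types, 1 probe set each and none of the 9, were tested over 12952 genes, of which 0.625% were called higher and 0.0232% lower. In the union of the 7 lymphoid lists 2 of 98 tested genes rose and none fell (median log2 fold change 0.31, against -0.0049 over all genes). At an unadjusted p under 0.05 there were 29 higher and 2 lower, where all genes had 6.05% and 6.02%. The 2 that rose were Fcer2a, the low-affinity IgE receptor of B cells and macrophages, and Malt1, a protease that relays antigen receptor signals to NF-kappaB. Fcer2a stayed called with any 1 pool left out, and Malt1 did so except without deleted pool 2 (adjusted p = 0.053). Without control pool 2 the count was 6, and without control pool 3 it was 14, among them Cd2, Icos, Il2rb, Il7r, Nkg7 and Ptprc. Calls over the whole array rose in these fits as well. Of the 27022 probe sets 87 were called as reported (85 higher), 461 without control pool 2 (197 higher) and 198 without control pool 3 (184 higher).

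In the T cell list none of 19 tested genes passed (median 0.39, 8 higher and none lower with an unadjusted p under 0.05). Cd2, an adhesion receptor of T and NK cells, had the smallest p, with 805, 731 and 1469 in control and 1830, 1647 and 1650.5 in deleted pools (log2 0.84, adjusted p = 0.24). Icos, a T cell costimulator, followed at 0.60 (adjusted p = 0.29). Without control pool 3 the list had 5 genes called higher, Cd2 and Icos among them, and Cd2 was also called with array weights. Of the 19, 18 had a log2 fold change above 0, and the exception was the coreceptor gene Cd8a. Its signals were 507, 522 and 710 in control and 466, 204 and 514 in deleted pools (log2 -0.65, adjusted p = 0.52). The coreceptor genes Cd4 and Cd8b1 lay below the filter. Control pool 3 was the highest control for 16 of the 19, where 39.6% of all genes had it so, and summed signals were 16495 to 30068 in control and 25572 to 30084 in deleted pools.

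The B cell list had 1 of 20 tested genes higher and none lower (median 0.25, and -0.01 without deleted pool 1). This was Fcer2a, at 410, 544 and 490 in control and 1755, 2181 and 2404 in deleted pools, 4.38-fold (log2 2.13 ± 0.19, adjusted p = 0.0037). It differed from the B cell members in its order of pools, since control pool 3 lay between the other controls and deleted pool 1 was the lowest deleted pool. Pax5, which maintains B cell identity, and Cr2, a complement receptor, lay below the filter. Control pool 3 was the highest control for 16 of the 20, and summed signals were 15172 to 23197 in control and 17685 to 24873 in deleted pools.

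NK cell genes gave none past the threshold among 12 tested (median 0.54, 4 higher and none lower with an unadjusted p under 0.05). For all 12, control pool 3 was the highest control. Tbx21, which encodes the transcription factor T-bet, stood at 0.91 (adjusted p = 0.22) and the chemokine gene Ccl5 at 0.90 (adjusted p = 0.29). Without control pool 3 the list had 3 genes called higher, among them Ccl5, which was also called with array weights. Summed signals were 13634 to 30453 in control and 25985 to 30931 in deleted pools.

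In the dendritic cell list none of 19 passed (median 0.32, 8 above and 1 below 0 with an unadjusted p under 0.05). Ccl22, a chemokine gene of mature dendritic cells and macrophages, came nearest at 666, 590 and 435.5 in control and 1692.5, 1070 and 1246 in deleted pools (log2 1.24 ± 0.24, adjusted p = 0.068), and Il12b, a cytokine subunit gene, followed at 1.19 (adjusted p = 0.11). Ccl22 was called without control pool 2, with a common median, with array weights and with the pool number as a block, and Il12b without an intensity trend. The list had 2 genes called higher without control pool 2 (Ccl22 and Itgax) and 2 without control pool 3 (Fscn1 and Irf8). Fscn1 was also called with array weights and with the block, and Cd86 with array weights. Of the 19, 14 had a log2 fold change above 0. Il4i1 was among the others, with every deleted pool below every control. Its signals were 490, 404 and 462.5 in control and 396, 285.5 and 308 in deleted pools (log2 -0.47, adjusted p = 0.52). As for Cd83, control pool 3 was not above the other controls for Ccl22. Over the list, control pool 3 was the highest control for 12 of the 19, where 39.6% of all genes had it so. Flt3, Xcr1, Batf3 and Siglech, which mark dendritic subsets, lay below the filter. Summed signals were 122899 to 160798 in control and 118581 to 128104 in deleted pools, a sum led by Cd24a, which epithelium also expresses and which was lower in deleted pools (92066 ± 13931 against 66065 ± 4496, adjusted p = 0.22).

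Among genes of the CCR7 axis and lymphoid homing none of 10 passed (median 0.20, 2 higher and none lower with an unadjusted p under 0.05). Cxcr4, the receptor of CXCL12, stood at 0.76 (adjusted p = 0.19), and Gpr183, an oxysterol receptor that positions B and dendritic cells, at 0.85 (adjusted p = 0.25). Cxcr4 was called without control pool 3 and with array weights. The CCR7 ligand genes Ccl19 and Ccl21a were not analysed here, since no probe set named either alone.

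Genes that carry the signal from CD3 and CD79 inward gave 1 of 19 higher and none lower (median 0.38). This was Malt1, at 1942, 1959 and 1882.5 in control and 4641, 4046 and 3813 in deleted pools, 2.15-fold (log2 1.11 ± 0.12, adjusted p = 0.0053). Like Cd83 it was even among the controls. The kinase genes Btk (log2 1.38, adjusted p = 0.21) and Syk (0.66, adjusted p = 0.24), which myeloid cells express as well, did not pass. Both were called without control pool 2, the fit with the most calls over all probe sets (461), and Btk also with array weights. Ptprc, which encodes the pan-leukocyte protein CD45, had signals of 6521, 6306 and 14263 in control and 14851, 10821 and 12816 in deleted pools (log2 0.60, adjusted p = 0.43), the same order of controls as Cd3d except that control pool 2 was the lowest.

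Genes with the pattern most like that of the T cell members over the 6 pools, by root mean square difference of centred log2 signal, were Cd53 (0.088), a tetraspanin gene of leukocytes, Bcl11a (0.10), Ptprc (0.13), Ms4a6b (0.14) and Rac2 (0.16), out of 12349 compared. For the B cell members they were Fli1 (0.12), Krt6a, Il1rn, Fasl and Ccl2, and for Ccr7 and Cd83 they were Nfkbie (0.11), which encodes an inhibitor of NF-kappaB, Il15ra, Itgb2, S100a8 and Ighv14-2. Of the 18 immediate early genes of cell isolation 2 rose and none fell, where 0.625% of all genes rose and 0.0232% fell. Their median was 0.15, against -0.0049 over all genes, with a summed signal of 726674 to 887016 in control and 774078 to 922654 in deleted pools. For 13 of the 18, control pool 3 was the highest control. The 2 that rose were the NF-kappaB regulator genes Nfkbiz (log2 1.01) and Tnfaip3 (0.82). Tnfaip3 missed the threshold without control pool 1 (adjusted p = 0.096) or any 1 of the deleted pools (0.10 to 0.17), and the part of these genes in the value of Cd83 was not tested.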

How the data were processed

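Biotin-labelled RNA of 6 pools was hybridised to an Affymetrix mouse array. The authors deposited 1 intensity per probe set and array, on a linear scale, and MAS5 made it per the submitters' processing notes (version not stated there). Signals under 1 (25 values) were set to 1 and log2 was taken, with no further normalization. Probe sets below the 40th percentile of mean log2 signal were left out. Names were those of the platform annotation, and the Entrez numbers of all 9 genes were found in the RefSeq table of GRCm38.p6. The comparison of genotypes used limma 3.58.1 under R 4.3.3 (intensity trend, two-sided), per probe set, and for gene lists on each gene's brightest probe set. The steps were tested on simulated data with independent noise for each probe set and no effect shared within a pool. That test does not cover data in which 1 pool stands apart. With 3 pools against 3 an exact two-sided permutation test cannot go below 0.1, so none was run, and the number of arrays limits the precision. P-values measure the spread between pools. Named were the 9 genes, up to 4 called genes or else the 2 smallest p of each lymphoid list, and 5 genes of like pattern. Cd24a, Il4i1, Cd8a, Itgax, Fscn1, Irf8, Cd86, Il7r, Il2rb, Nkg7, Btk, Syk, Ptprc, genes below the filter and those of the other lists were named after their values were seen. Members and lists were chosen with earlier results of these data known. Alternatives were other normalizations, a pseudocount, variance models, filters, array weights, a replicate block, probe set summaries and each pool left out. Figures were drawn with matplotlib 3.10.9.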

Additional observations from a re-analysis of the deposited data

How the results depend on the processing

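Of the 17 probe sets, Cd83 alone was called as reported. No probe set was called without an intensity trend (count 0, with 3 at an unadjusted p under 0.05), and 2 were with array weights (Cd83 and Ccr7). With 1 pool left out the count ran from 0 to 3, with 3 (Cd3d, Ccr7 and Cd83) without control pool 3. Over all probe sets 87 were called, 131 with a common median, 4 without a trend and 170 with array weights. Leaving out 1 pool gave 3 (without deleted pool 2) to 461 (without control pool 2). Lymphoid list genes called were 2 as reported, 9 with array weights and 1 to 14 with 1 pool left out. The median share of the sum of squares between genotypes ran from 6.4985% to 48.1% with 1 pool left out. Of 230 log2 fold changes under the alternatives, 19 turned sign, and 10 of the 17 probe sets never did:  Cd83, Ccr7, Cd3d, Cd3g, Cd79a and 5 Ighm probe sets.

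Signs turned for Cd3e (-0.10 with array weights, -0.23 to 0.39 with 1 pool left out), Cd79b (-0.032 to 0.33), Ms4a1 (-0.13 to 0.66 and -0.10 to 0.55) and the Ighm probe sets 1452535_at (-0.27 to 0.43), 1425385_a_at (-0.44 to 0.13) and 1427756_x_at (-0.40 to 0.24, 0.015 with quantile normalization, 0.036 with a common median and 0.20 with array weights). The cause was not tested.

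Whether pool numbers pair the samples was not settled. Deviations of same-numbered pools correlated weakly, at 0.11, 0.05 and 0.13, and all 6 pools correlated best with their own number. With the pool number as a replicate block 1 probe set of the 17 was called, 145 of all and 4 list genes. Cd3g, 1 Ms4a1 and 2 Ighm probe sets had mean log2 signals of 8.72 to 8.90, the nearest to the filter. No background level was measured here, so its part in these values was not tested.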
